A study of Mus musculus with 78 samples.

Results

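The 8 genes described here belong to the unfolded protein response: the transcription factors ATF4, ATF6 and XBP1, and the genes DDIT3, TRIB3, EDEM1, ERO1L and ERO1LB that lie downstream of them. They were chosen by name as factors and targets of the branches of this response, and make up 8 of the 2755 genes of the measured panel. All 8 were among the 2205 genes that passed the authors' filter on low values, so none was lost to it. Liver gene expression was measured with TempO-Seq, a targeted assay that ligates pairs of probes on RNA and counts the products, in lysates of formalin-fixed, paraffin-embedded (FFPE) sections with 1 library per mouse. The animals were male B6C3F1 mice, 4 weeks old when exposure began, that drank deionized water with or without 3.5 g/L dichloroacetic acid (DCA). S1 mice drank DCA for 10 weeks, S2 mice for 32, S3 mice for 57 and Direct mice for 78, and the number after the dash in a group's name is the week of collection. Direct-78, S3-57, S2-32 and S1-10 were collected when exposure ended and form the Continuous Exposure subgroup. After DCA was stopped, mice drank deionized water alone, for 22 weeks in S1-32, 47 in S1-57, 68 in S1-78, 46 in S2-78 and 21 in S3-78. Control-10, Control-32, Control-57 and Control-78 drank deionized water throughout and are the age-matched controls. Of 78 libraries the authors kept 68, which were used here: 6 in every group except Control-10, S2-78 and S3-78 (4 each), S3-57 (5) and Direct-78 (3).

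Cells answer unfolded protein in the endoplasmic reticulum through sensors in its membrane. The kinase PERK slows translation and lets ATF4 be made, which switches on amino acid and stress genes, among them DDIT3 and TRIB3. ATF6 moves to the Golgi and is cut to release a factor that induces chaperones, while IRE1 splices XBP1 mRNA into a form that encodes a strong activator of folding, export and degradation genes. Hepatocytes carry a large reticulum because they secrete most plasma proteins, and both ATF4 and ATF6 are controlled largely after transcription, so their mRNA level is not a readout of their activity.

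Total counts ranged from 541245 to 4285848 per kept library (median 2162678.0). In Direct-78 they ran from 541245 to 699825, below every Control-78 library (2098777 to 4285848). In S1-32 they ran from 2979117 to 3914572, above every Control-32 library (721372 to 2731045). Totals also lay below every age-matched control in S3-78 (up to 1936370) and in S3-57 (up to 2030701, against at least 2223516 in Control-57). R2, the squared Spearman correlation of a library with the mean of all libraries, was 0.641 to 0.8001 in Direct-78 and 0.849 to 0.944 in Control-78. The lowest R2 of the kept libraries were 0.628 (mouse 75, Control-32) and 0.641 (mouse 66, Direct-78). Hepatocyte markers were present in every library: 9 of 12 listed genes were on the panel, none had a median of 0, and their sum was 22101 to 114929 CPM (counts scaled to a common library size), with TTR the most abundant. The lowest sum was that of mouse 68 of Control-10. Levels are given as CPM with TMM factors and as mean ± SD over the libraries of a group, and SE is the standard error of a log2 fold change. A differentially expressed gene (DEG) passed an edgeR adjusted p of at most 0.05 and changed by more than 1.5-fold, from 1 fit of all 13 groups over 2205 genes. Each call was repeated without each library in turn and under 9 alternatives, namely RLE factors, DESeq2, all panel genes, all 78 libraries, only the groups compared, 2 covariates (log2 total count and number of detected genes), and leaving out 11 libraries high in pancreas genes or the 2 of low R2. The detected-gene covariate and the R2 limit of 0.7 were chosen after seeing the data.

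Promoter windows of 300 bases, from RefSeq on build GRCm38.p6, matched 7 of the 8 genes, with no entry for Atf6. Each was searched on both strands for sequence motifs of the branches: the endoplasmic reticulum stress element ERSE (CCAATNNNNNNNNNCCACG, in 39 of 32851 promoters (0.119%)), the element UPRE (TGACGTG, in 661 of 32851 promoters (2.01%)) and the CEBP-ATF element CARE (TGATGNAA, in 1304 of 32851 promoters (3.97%)). Of the 8 genes, Ero1b (listed as ERO1LB) held ERSE and Trib3 held CARE, and the letters searched were not in the windows of Atf4, Xbp1, Ddit3, Edem1 and Ero1a (listed as ERO1L). Among other pathway genes tested, ERSE was in 6 of 10 chaperones with a window and CARE in 7 of 16 ATF4 and CHOP targets with one. The 6 windows printed are those of the 2 members with a motif and of the 4 other pathway genes with ERSE that were DEGs in Direct-78, a choice made after their values were seen. They are Ero1b (chr13:12565633-12565932, plus strand), Trib3 (chr2:152344011-152344310, minus strand), Hspa5 (chr2:34771840-34772139, plus strand), Canx (chr11:50325624-50325923, minus strand), Pdia6 (chr12:17266339-17266638, plus strand) and Creld2 (chr15:88819396-88819695, plus strand). Capitals mark the motifs, which are described by their letters alone: bases 50 to 68 of Ero1b, 186 to 204 of Hspa5, 106 to 124 of Canx, 153 to 171 of Pdia6 and 125 to 143 of Creld2 are ERSE, bases 94 to 100 of Hspa5 are UPRE, and bases 265 to 272 of Trib3 are CARE.
Ero1b: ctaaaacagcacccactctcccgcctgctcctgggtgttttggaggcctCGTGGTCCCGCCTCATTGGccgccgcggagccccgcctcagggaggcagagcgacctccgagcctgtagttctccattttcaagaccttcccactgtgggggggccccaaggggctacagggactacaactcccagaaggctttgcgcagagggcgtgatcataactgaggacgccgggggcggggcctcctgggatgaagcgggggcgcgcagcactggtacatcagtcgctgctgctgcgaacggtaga
Trib3: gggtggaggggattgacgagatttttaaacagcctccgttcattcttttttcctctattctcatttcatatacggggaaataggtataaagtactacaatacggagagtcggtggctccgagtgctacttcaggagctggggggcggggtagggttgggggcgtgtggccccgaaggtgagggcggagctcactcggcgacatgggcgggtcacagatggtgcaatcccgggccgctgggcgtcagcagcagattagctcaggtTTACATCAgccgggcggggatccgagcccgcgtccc
Hspa5: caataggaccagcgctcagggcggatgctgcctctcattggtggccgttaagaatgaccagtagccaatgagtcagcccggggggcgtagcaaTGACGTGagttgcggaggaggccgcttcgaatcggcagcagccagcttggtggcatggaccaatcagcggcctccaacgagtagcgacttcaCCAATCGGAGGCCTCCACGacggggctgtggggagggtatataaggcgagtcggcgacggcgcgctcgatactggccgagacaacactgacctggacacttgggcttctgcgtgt
Canx: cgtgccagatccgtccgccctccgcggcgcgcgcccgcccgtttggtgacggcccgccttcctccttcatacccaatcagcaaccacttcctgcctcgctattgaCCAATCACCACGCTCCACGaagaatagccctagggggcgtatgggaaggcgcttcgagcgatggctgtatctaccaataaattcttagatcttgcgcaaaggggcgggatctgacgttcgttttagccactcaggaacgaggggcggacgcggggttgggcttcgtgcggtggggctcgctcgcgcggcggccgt
Pdia6: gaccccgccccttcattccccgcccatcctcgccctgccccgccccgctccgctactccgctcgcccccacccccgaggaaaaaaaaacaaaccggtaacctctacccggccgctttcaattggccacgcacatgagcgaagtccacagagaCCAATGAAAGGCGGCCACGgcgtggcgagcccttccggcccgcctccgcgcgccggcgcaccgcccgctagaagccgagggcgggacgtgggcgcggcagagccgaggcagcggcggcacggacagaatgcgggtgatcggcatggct
Creld2: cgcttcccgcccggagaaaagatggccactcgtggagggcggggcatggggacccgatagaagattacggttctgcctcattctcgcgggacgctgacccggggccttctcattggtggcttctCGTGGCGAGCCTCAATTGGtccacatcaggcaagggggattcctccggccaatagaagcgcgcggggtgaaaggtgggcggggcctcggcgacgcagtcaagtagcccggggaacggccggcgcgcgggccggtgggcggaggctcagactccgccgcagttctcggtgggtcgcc

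**Figure D1:**
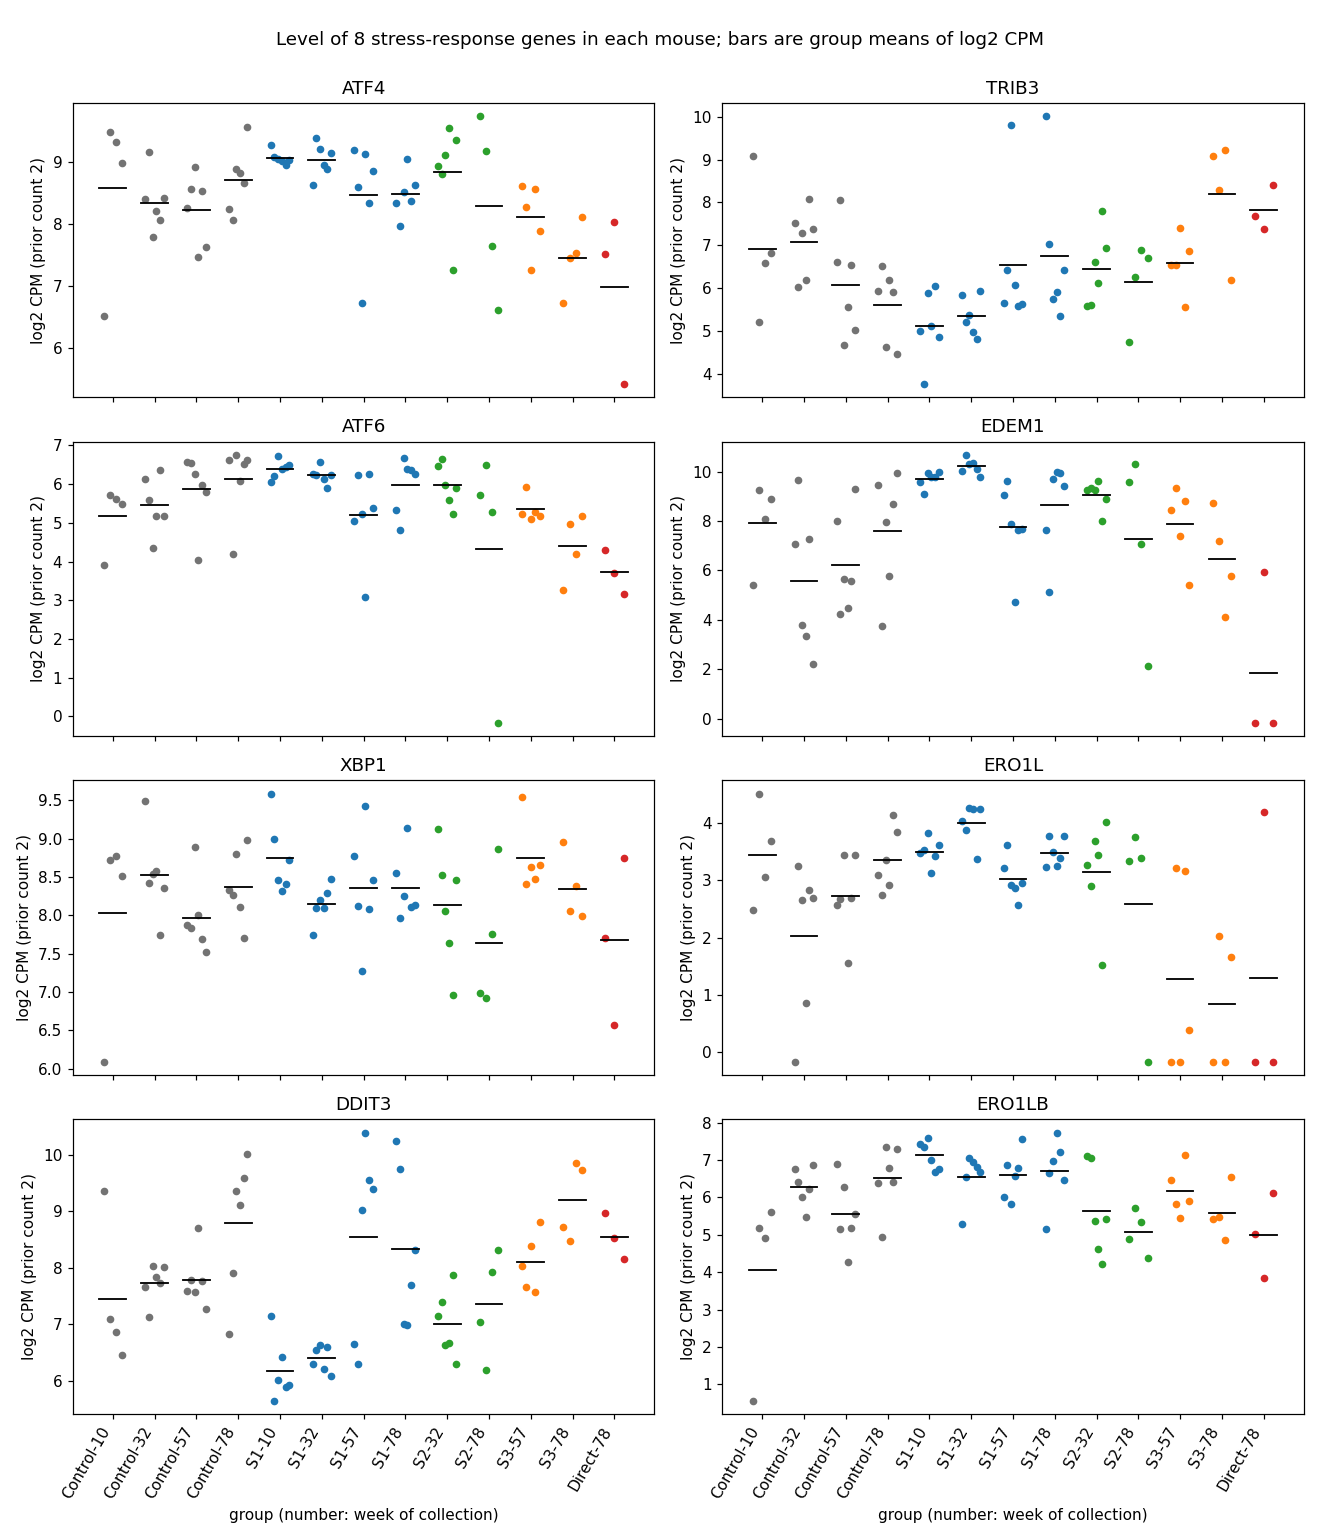
Level of each gene in each mouse (log2 CPM with a prior count of 2, vertical axis) by group (horizontal axis), with 1 point per mouse and bars at the group means of log2 CPM. TRIB3 in mouse 31 of S1-78 reached 1038 CPM, and EDEM1 had 0 counts in mice 64 and 66 of Direct-78.

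ATF4 encodes the factor of the PERK branch (ENSMUSG00000042406, chromosome 15 from 80255184 to 80257541 on GRCm38, from GENCODE vM21, the source of all gene positions given here). The level of ATF4 was highest in S1-10, at 539 ± 43.8 CPM, followed by S1-32 (533 ± 97.9), S2-32 (507 ± 205) and Control-10 (489 ± 279.9). ATF4 then took lower means in Control-78 (443 ± 173), S2-78 (433 ± 350.0), S1-57 (404 ± 177), S1-78 (365 ± 93.9) and Control-32 (339 ± 122). Lowest for ATF4 were Control-57 (318 ± 117), S3-57 (293 ± 101) and S3-78 (185 ± 70.9), and Direct-78, at 162 ± 111 CPM. For ATF4, 11 of the 12 steps between neighbours in this order were smaller than the larger SD of the pair, and the exception was the step from S3-57 to S3-78. Single Direct-78 libraries had 183, 261 and 41.8 CPM (mice 64, 65 and 66), while Control-78 libraries ran from 266 to 754 CPM (median 430.0). All 3 Direct-78 mice lay below every Control-78 mouse, and mouse 66 was the lowest. ATF4 was a DEG in Direct-78, where 24.4% of all tested genes were, with a log2 fold change of -1.45 (SE 0.51, adjusted p = 0.0334) from edgeR. ATF4 in Direct-78 lost its call in 3 of 9 fits without 1 library (without mice 64, 66 and 90 in turn), with the largest adjusted p (0.228, at -0.97) without mouse 66 of Direct-78. Over the 9 alternatives, ATF4 in Direct-78 had an adjusted p from 0.00468 to 0.506 and was not called with RLE factors, only the groups compared, the log2 total count as a covariate, the libraries high in pancreas genes left out and the libraries of low R2 left out. S3-78 libraries had 105, 175, 184 and 278 CPM (mice 55, 56, 59 and 60). Mouse 60 reached into the Control-78 range and the other 3 lay below it. The S3-78 change of -1.26 (adjusted p = 0.0530) missed the adjusted p threshold in edgeR and passed it at -1.52 (adjusted p = 0.0403) without mouse 60, -1.29 (adjusted p = 0.0464) without mouse 85 and -1.37 (adjusted p = 0.0353) without mouse 86. Under the 9 alternatives ATF4 in S3-78 was called in 5, with an adjusted p from 0.0241 to 0.225. In the other 7 contrasts the ATF4 changes lay between -0.28 and 0.65, with adjusted p of 0.196 or more. The tested genes most like ATF4 over the 13 group means of log2 CPM were MTNR1A (r = 0.977) and LYPLA1 (r = 0.973).

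ATF6 encodes the sensor that becomes a factor after it is cut (ENSMUSG00000026663, chromosome 1 from 170704674 to 170867771). The level of ATF6 was highest in S1-10, at 83.5 ± 13.7 CPM, followed by Control-78 (79.4 ± 33.1), S1-32 (74.7 ± 11.4) and S1-78 (68.2 ± 28.4). ATF6 then took lower means in Control-57 (65.7 ± 29.1), S2-32 (65.4 ± 24.2), Control-32 (47.9 ± 23.1), S2-78 (44.7 ± 37.05) and S1-57 (44.5 ± 26.4). Lowest for ATF6 were S3-57 (40.7 ± 11.05), Control-10 (39.6 ± 17.2) and S3-78 (22.9 ± 12.01), and Direct-78, at 12.99 ± 5.38 CPM. For ATF6, 12 of the 12 steps between neighbours in this order were smaller than the larger SD of the pair. In single libraries, ATF6 had 18.7, 12.1 and 8.10 CPM in Direct-78 (mice 64, 65 and 66). S3-78 libraries had 8.67, 30.3, 17.5 and 34.98 CPM (mice 55, 56, 59 and 60), and Control-78 libraries 17.5 to 107 CPM (median 93.5). Both treated groups overlapped the controls at a single Control-78 library, the lowest, at 17.5 CPM. ATF6 was a DEG in Direct-78, at -2.60 (SE 0.68, adjusted p = 0.00594), and in S3-78, where 13.3% of tested genes were DEGs, at -1.80 (SE 0.57, adjusted p = 0.0239) from edgeR. ATF6 in Direct-78 kept its call in all 9 fits without 1 library, with an adjusted p of up to 0.0445, at -2.31, without mouse 66 of Direct-78. ATF6 in S3-78 lost its call in 2 of 10 fits without 1 library (without mice 55 and 59 in turn), with the largest adjusted p (0.110, at -1.48) without mouse 55 of S3-78. The alternatives gave ATF6 in Direct-78 an adjusted p from 0.00151 to 0.626, with no call with the log2 total count as a covariate. ATF6 in S3-78 missed the thresholds with the log2 total count as a covariate, over alternatives whose adjusted p ran from 0.00554 to 0.383. At 10 weeks, S1-10 libraries had 65.2 to 105 CPM (median 84.6), all above the 4 Control-10 libraries, whose highest was 51.6 CPM. ATF6 was not a DEG there (1.08, adjusted p = 0.246). Over the 7 contrasts without a call ATF6 log2 fold changes ran from -0.83 to 1.08, with adjusted p of 0.246 or more. Its nearest genes over the 13 group means were TMEM97 (r = 0.965) and NR3C1 (r = 0.957).

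XBP1 encodes the factor of the IRE1 branch (ENSMUSG00000020484, chromosome 11 from 5520659 to 5525893). The counts of this row do not separate the spliced from the unspliced form, and the position of the probe is not given in the sources used here. The level of XBP1 was highest in S1-10, at 452 ± 170.3 CPM, followed by S3-57 (448 ± 169), Control-32 (393 ± 171) and S1-57 (362 ± 184). XBP1 then took lower means in Control-78 (344 ± 111), S1-78 (341 ± 117), S3-78 (337 ± 111), Control-10 (323 ± 173) and S2-32 (311 ± 152). Lowest for XBP1 were S1-32 (287 ± 47.3), Control-57 (264 ± 107) and Direct-78 (243 ± 169.7), and S2-78, at 232 ± 162 CPM. For XBP1, 12 of the 12 steps between neighbours in this order were smaller than the larger SD of the pair. Within groups, XBP1 had the smallest spread of the 8 genes, an SD of 0.65 on the log2 scale against a median of 0.93 over all tested genes. The S3-57 libraries had 747, 339.6, 396, 355 and 403 CPM (mice 49, 50, 51, 53 and 54), and Control-57 libraries 183 to 476 CPM (median 231). Those groups overlapped, with mouse 49 the highest. XBP1 was a DEG in 0 of the 9 contrasts with edgeR or with DESeq2, and 1 of the 9 had an unadjusted p under 0.05. That was S3-57, at 0.76 (adjusted p = 0.253), which became 0.49 (adjusted p = 0.611) without mouse 49. The other 8 changes of XBP1 lay between -0.57 and 0.49. Over the 13 group means its nearest genes were GRIK5 (r = 0.791) and CRELD2 (r = 0.776), lower values of r than for the nearest genes of any other member.

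DDIT3 encodes CHOP, a factor induced by ATF4 that promotes cell death under lasting stress (ENSMUSG00000025408, chromosome 10 from 127290774 to 127296288). A second Ddit3 gene model of GENCODE, ENSMUSG00000116429, overlaps it, and the row is not assigned between them. The level of DDIT3 was highest in S3-78, at 638 ± 292 CPM, followed by S1-57 (577 ± 471), Control-78 (560.3 ± 340.0) and S1-78 (476 ± 455). DDIT3 then took lower means in Direct-78 (383 ± 108), S3-57 (287 ± 107), Control-10 (248 ± 271), Control-57 (231 ± 93.9) and Control-32 (216 ± 44.9). Lowest for DDIT3 were S2-78 (190.5 ± 110.4), S2-32 (136 ± 57.6) and S1-32 (84.2 ± 13.5), and S1-10, at 76.02 ± 33.5 CPM. For DDIT3, 12 of the 12 steps between neighbours in this order were smaller than the larger SD of the pair. At 32 weeks the libraries had 66.7 to 98.8 CPM in S1-32 (median 85.2) and 139 to 259.6 CPM in Control-32 (median 219.8). Every S1-32 mouse lay below every Control-32 mouse. DDIT3 was a DEG there, in a contrast where 29.1% of tested genes were, at -1.36 (SE 0.51, adjusted p = 0.0376) from edgeR. DDIT3 in S1-32 lost its call in 6 of 12 fits without 1 library (without mice 19, 22, 24, 75, 76 and 78 in turn), with the largest adjusted p (0.0720, at -1.33) without mouse 75 of Control-32. Over the 9 alternatives, DDIT3 in S1-32 had an adjusted p from 0.00226 to 0.4664 and was not called with all 78 libraries, the log2 total count as a covariate, the libraries high in pancreas genes left out and the libraries of low R2 left out. At 10 weeks they had 49.1 to 140.0 CPM in S1-10 (median 61.8) and 653, 136, 115 and 86.9 CPM in Control-10 (mice 68, 69, 71 and 72). The groups overlapped, and mouse 68 stood far above the other controls. The S1-10 change of -1.70 (adjusted p = 0.0552) missed the threshold and became -0.56 (adjusted p = 0.814) without mouse 68, and passed at -1.97 (adjusted p = 0.0424) without mouse 13, -1.90 (adjusted p = 0.0364) without mouse 69, -1.94 (adjusted p = 0.0397) without mouse 71 and -1.98 (adjusted p = 0.0260) without mouse 72. S1-57 and S1-78 spread widely, over 77.7 to 1343 and 127 to 1213 CPM, and neither was a DEG, at 1.32 (adjusted p = 0.173) and -0.24 (adjusted p = 0.887). S2-78 was not called either, at -1.56 (adjusted p = 0.150). Over the 13 group means DDIT3 was most like GFOD1 (r = 0.954) and POGK (r = 0.891).

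TRIB3 encodes a pseudokinase that is induced by ATF4 and CHOP and dampens insulin signalling through AKT (ENSMUSG00000032715, chromosome 2 from 152337422 to 152344032). The level of TRIB3 was highest in S3-78, at 382 ± 241 CPM, followed by Direct-78 (237 ± 90.5), S1-78 (234 ± 395) and S1-57 (199 ± 342). TRIB3 then took lower means in Control-10 (196 ± 232), Control-32 (152 ± 76.3), S3-57 (103 ± 44.5), S2-32 (101 ± 66.7) and Control-57 (92.9 ± 90.5). Lowest for TRIB3 were S2-78 (80.7 ± 40.7), Control-78 (54.4 ± 27.2) and S1-32 (41.7 ± 13.4), and S1-10, at 37.97 ± 19.8 CPM. For TRIB3, 12 of the 12 steps between neighbours in this order were smaller than the larger SD of the pair. In S1-10 its libraries had 12.6 to 65.01 CPM (median 32.2), against 540.2, 35.7, 95.8 and 112 CPM in Control-10 (mice 68, 69, 71 and 72). The groups overlapped, and mouse 68 was the high control. TRIB3 was a DEG in S1-10, where 5.49% of tested genes were, at -2.36 (SE 0.75, adjusted p = 0.0480) from edgeR. TRIB3 in S1-10 lost its call in 7 of 10 fits without 1 library (without mice 13, 14, 15, 16, 17, 18 and 68 in turn), with the largest adjusted p (0.721, at -1.09) without mouse 68 of Control-10. Over the 9 alternatives, TRIB3 in S1-10 had an adjusted p from 0.0108 to 0.118 and was not called with all panel genes and the log2 total count as a covariate. S1-32 libraries had 27.2 to 59.7 CPM (median 38.4) and Control-32 libraries 63.9 to 269.7 CPM (median 160.4), with no overlap. It was a DEG there, at -1.86 (SE 0.69, adjusted p = 0.0376). TRIB3 in S1-32 lost its call in 8 of 12 fits without 1 library (without mice 20, 21, 22, 23, 73, 75, 77 and 78 in turn), with the largest adjusted p (0.0694, at -1.78) without mouse 22 of S1-32. The alternatives gave TRIB3 in S1-32 an adjusted p from 0.00276 to 0.377, with no call with all 78 libraries, the log2 total count as a covariate and the libraries of low R2 left out.

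At 78 weeks the direction of TRIB3 was the opposite. S3-78 libraries had 545, 314, 597 and 71.5 CPM (mice 55, 56, 59 and 60) and Direct-78 libraries 206, 166 and 339 CPM (mice 64, 65 and 66), against 21.2 to 89.97 CPM in Control-78 (median 59.5). All 3 Direct-78 mice and 3 of 4 S3-78 mice lay above every Control-78 mouse. TRIB3 was a DEG in both, at 2.82 (SE 0.76, adjusted p = 0.00883) in S3-78 and 2.13 (SE 0.79, adjusted p = 0.0425) in Direct-78 from edgeR. TRIB3 in S3-78 kept its call in all 10 fits without 1 library, with an adjusted p of up to 0.0375, at 2.47, without mouse 59 of S3-78. TRIB3 in Direct-78 lost its call in 6 of 9 fits without 1 library (without mice 64, 66, 85, 87, 89 and 90 in turn), with the largest adjusted p (0.162, at 1.80) without mouse 66 of Direct-78. TRIB3 in S3-78 missed the thresholds with the log2 total count as a covariate, over alternatives whose adjusted p ran from 0.000945 to 0.156. The alternatives gave TRIB3 in Direct-78 an adjusted p from 0.00700 to 0.906, with no call with all 78 libraries, the log2 total count as a covariate and the libraries of low R2 left out. Single mice carried the means of S1-57 and S1-78: mouse 27 had 896 CPM and mouse 31 had 1038 CPM, while the other mice of these groups had at most 84.8 and 131 CPM. Neither change was called, and that of S1-78, 2.11 (adjusted p = 0.0939), became 0.42 (adjusted p = 0.826) without mouse 31. S2-32, S2-78 and S3-57 were not called, at -0.59 (adjusted p = 0.569), 0.58 (adjusted p = 0.772) and 0.15 (adjusted p = 0.947). Genes with the nearest pattern over the 13 group means were LMOD3 (r = 0.937) and SLC27A1 (r = 0.927).

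EDEM1 encodes a mannosidase-like protein that passes misfolded glycoproteins on to degradation and is a target of XBP1 (ENSMUSG00000030104, chromosome 6 from 108828641 to 108859356). The level of EDEM1 was highest in S1-32, at 1208 ± 257 CPM, followed by S1-10 (846 ± 169), S1-78 (622 ± 412) and S2-32 (563 ± 183). EDEM1 then took lower means in S2-78 (541 ± 586), Control-78 (404 ± 384), Control-10 (349.6 ± 249), S1-57 (332 ± 279) and S3-57 (331 ± 237). Lowest for EDEM1 were Control-32 (187 ± 311), Control-57 (171 ± 245) and S3-78 (161 ± 185), and Direct-78, at 20.2 ± 35.01 CPM. For EDEM1, 11 of the 12 steps between neighbours in this order were smaller than the larger SD of the pair, and the exception was the step from S1-32 to S1-10. EDEM1 varied more among mice of a group than all but a few genes, with a within-group SD of 2.01 on the log2 scale (percentile 98.8 of tested genes). Its libraries had 888 to 1635 CPM in S1-32 (median 1182) and 3.74 to 807 CPM in Control-32 (median 72.7). Every S1-32 mouse lay above every Control-32 mouse, and mouse 74 was the one high control. EDEM1 was a DEG in S1-32, at 2.68 (SE 1.00, adjusted p = 0.0369) from edgeR, and the change was 4.26 (adjusted p = 0.00245) without mouse 74. EDEM1 in S1-32 lost its call in 7 of 12 fits without 1 library (without mice 20, 22, 73, 75, 76, 77 and 78 in turn), with the largest adjusted p (0.0846, at 2.44) without mouse 75 of Control-32. Over the 9 alternatives, EDEM1 in S1-32 had an adjusted p from 0.0119 to 0.691 and was not called with all 78 libraries, the log2 total count as a covariate, the libraries high in pancreas genes left out and the libraries of low R2 left out. S1-10 libraries were also high, at 552 to 1006 CPM (median 884), but Control-10 reached 609 CPM and the change was not called (1.27, adjusted p = 0.535).

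In Direct-78, EDEM1 had 0 counts in mice 64 and 66 and 60.6 CPM in mouse 65. At their depth, 0 counts allow a level of up to 2.96 CPM in mouse 64 and 4.05 CPM in mouse 66 (3 counts per library). Such limits cover counting error only. Control-78 libraries had 12.5 to 988 CPM (median 329), so mouse 65 lay within the control range and the other 2 below it. EDEM1 was a DEG in Direct-78, at -4.35 (SE 1.498, adjusted p = 0.0298) from edgeR. EDEM1 in Direct-78 lost its call in 3 of 9 fits without 1 library (without mice 64, 66 and 90 in turn), with the largest adjusted p (0.135, at -3.64) without mouse 64 of Direct-78. Without mouse 65 both remaining libraries were at 0 and no fold change is given. The alternatives gave EDEM1 in Direct-78 an adjusted p from 0.00370 to 0.994, with no call with only the groups compared, the log2 total count as a covariate, the libraries high in pancreas genes left out and the libraries of low R2 left out. With the log2 total count as a covariate the sign reversed, to 0.072 (adjusted p = 0.994). S3-78, with 426, 146, 16.4 and 53.99 CPM (mice 55, 56, 59 and 60), overlapped Control-78 and was not called (-1.33, adjusted p = 0.438). Over the 13 group means EDEM1 was most like LIPA (r = 0.987).

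ERO1L and ERO1LB encode the oxidases that reoxidize protein disulfide isomerase, and ERO1L is a target of CHOP (ENSMUSG00000021831, chromosome 14 from 45283087 to 45318771). ERO1L had few counts, from 0 to 57 per library, and 0 in 8 of the 68 libraries, which allows at most 1.53 to 4.42 CPM there (3 counts per library). The level of ERO1L was highest in S1-32, at 15.6 ± 3.44 CPM, followed by Control-10 (11.5 ± 7.57), S1-10 (10.5 ± 1.81) and S1-78 (10.4 ± 1.94). ERO1L then took lower means in Control-78 (9.95 ± 4.31), S2-32 (9.10 ± 4.58), S2-78 (7.91 ± 5.49), S1-57 (7.46 ± 2.22) and Control-57 (6.38 ± 3.12). Lowest for ERO1L were Direct-78 (5.84 ± 10.1), Control-32 (4.47 ± 3.32) and S3-57 (3.37 ± 4.43), and S3-78, at 1.37 ± 1.62 CPM. For ERO1L, 12 of the 12 steps between neighbours in this order were smaller than the larger SD of the pair. For ERO1L the S3-78 libraries had 0, 3.19, 0 and 2.28 CPM (mice 55, 56, 59 and 60), and Control-78 libraries 5.83 to 16.7 CPM (median 8.48). All 4 S3-78 mice lay below every control. ERO1L was a DEG in S3-78, at -2.81 (SE 0.94, adjusted p = 0.0342) from edgeR. ERO1L in S3-78 lost its call in 4 of 10 fits without 1 library (without mice 55, 59, 89 and 90 in turn), with the largest adjusted p (0.124, at -2.40) without mouse 55 of S3-78. Over the 9 alternatives, ERO1L in S3-78 had an adjusted p from 0.00250 to 0.292 and was not called with only the groups compared, the log2 total count as a covariate and the libraries high in pancreas genes left out. Direct-78 had 0 counts in mice 64 and 66 and 17.5 CPM in mouse 65, the last above every control, and was not called (-0.80, adjusted p = 0.545). Without mouse 65 both remaining values were 0 and ERO1L was called, also against S1-78 and in the difference from S1-10 below, with no fold change given. S1-32 libraries, at 9.54 to 18.3 CPM (median 16.8), were all above Control-32, at 0 to 8.64 CPM (median 5.51). The S1-32 change of 1.73 (adjusted p = 0.0686) missed the threshold and passed it at 2.01 (adjusted p = 0.0411) without mouse 74. Nearest to ERO1L over the 13 group means were VAPB (r = 0.932) and PDHA1 (r = 0.909).

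ERO1LB is the paralogue found mainly in secretory cells, a target of XBP1 and ATF6 whose window held ERSE (ENSMUSG00000057069, chromosome 13 from 12565874 to 12611396). The level of ERO1LB was highest in S1-10, at 144 ± 36.6 CPM, followed by S1-78 (118 ± 59.5), S1-57 (105 ± 48.002) and Control-78 (104 ± 49.8). ERO1LB then took lower means in S1-32 (99.7 ± 33.5), Control-32 (81.2 ± 26.9), S3-57 (76.9 ± 38.2), S2-32 (65.3 ± 54.1) and Control-57 (54.8 ± 36.3). Lowest for ERO1LB were S3-78 (51.6 ± 28.3), Direct-78 (37.97 ± 28.2) and S2-78 (34.9 ± 13.8), and Control-10, at 28.3 ± 20.01 CPM. For ERO1LB, 12 of the 12 steps between neighbours in this order were smaller than the larger SD of the pair. In S1-10 it ran from 101 to 189.9 CPM (median 146), against 0.589, 35.7, 29.2 and 47.7 CPM in Control-10 (mice 68, 69, 71 and 72). Every S1-10 mouse lay above every control, and mouse 68 was the lowest control, with 1 count. ERO1LB was a DEG in S1-10, at 2.34 (SE 0.60, adjusted p = 0.0170) from edgeR. ERO1LB in S1-10 lost its call in 1 of 10 fits without 1 library, that without mouse 68 of Control-10, at 1.94 (adjusted p = 0.126). The alternatives gave ERO1LB in S1-10 an adjusted p from 0.000740 to 0.144, with no call with all 78 libraries and only the groups compared. S2-78 libraries, at 28.6, 51.5, 39.9 and 19.8 CPM (mice 43, 44, 45 and 47), and Direct-78 libraries, at 31.6, 13.5 and 68.8 CPM (mice 64, 65 and 66), overlapped Control-78 (29.99 to 162 CPM). Neither was called, at -1.57 (adjusted p = 0.138) and -1.46 (adjusted p = 0.0883). The remaining 6 changes of ERO1LB lay between -1.02 and 0.94. Most like it over the 13 group means were 1300017J02RIK (r = 0.890) and PCCB (r = 0.861).

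Each treated group was compared with its age-matched controls to ask which genes differed while DCA was given and after it was stopped, and the count among the 8 genes was set against the share of all 2205 tested genes called by edgeR. In S1-10, 2 of 8 were DEGs, 1 in each direction, against 5.49% of tested genes (1.09% higher, 4.40% lower). Without mouse 68 of Control-10 the S1-10 count was 0 of 8 and that over all genes fell from 121 to 2, and it was 1 of 8 without mice 14, 15, 16, 17 and 18 in turn. Mouse 68 had the lowest hepatocyte sum and an R2 of 0.747, and their part in the result was not tested. S1-32 had 3 of 8, with 1 higher and 2 lower, against 29.1% of tested genes (11.9% higher, 17.2% lower). Without mouse 75 of Control-32 these counts were 0 of 8 and 372 of 2205, and the S1-32 count was also 0 without mice 22 and 78 and 1 without mice 20, 73, 76 and 77. S3-78 had 3 of 8, with 1 higher and 2 lower, against 13.3% of tested genes (5.85% higher, 7.48% lower), and 1 of 8 without mice 55 and 59 in turn, with 165 and 221 of all genes. Direct-78 had 4 of 8, with 1 higher and 3 lower, against 24.4% of tested genes (5.71% higher, 18.7% lower), and 1 of 8 without mice 64, 66 and 90 in turn, with 211, 242 and 380 of 2205. In S1-32 and Direct-78 the background was itself large. There and in S1-10 and S3-78, counts of 2 to 4 of 8 are too few to set the genes apart from the background. None of the 8 genes was called by edgeR in 5 contrasts. In S1-57 the background was 1.59% of tested genes (0.363% higher, 1.22% lower), and of the 8 genes 1 passed at an unadjusted p under 0.05 and 0 with DESeq2. In S1-78 it was 1.81% of tested genes (0.998% higher, 0.816% lower), with 1 at an unadjusted p under 0.05 and 1 with DESeq2. For S2-32 it was 10.7% of tested genes (3.45% higher, 7.21% lower), with 0 at an unadjusted p under 0.05 and 0 with DESeq2, and 1 of 8, EDEM1, without mouse 74 of Control-32. The S2-78 background was 1.63% of tested genes (0.816% higher, 0.816% lower), with 2 at an unadjusted p under 0.05 and 0 with DESeq2. S3-57 had 6.39% of tested genes (2.86% higher, 3.54% lower), with 1 at an unadjusted p under 0.05 and 0 with DESeq2. Contrasts of one age share their controls, so the 12 calls are not independent. Bulk sections cannot tell fewer cells of a type from less RNA per cell.

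The choice of scaling moved all genes together in 10 of the 15 comparisons, where the median log2 fold change of all tested genes differed by more than 0.1 between TMM and RLE factors. The shift was widest for the difference between the Direct-78 and S1-10 changes, with TMM and RLE medians of -0.35 and 0.14, followed by -0.33 and 0.07 in Direct-78 and -0.36 and -0.05 where Direct-78 was set against S1-78. The medians were 0.06 and 0.27 in S2-78, 0.07 and 0.27 in S3-78, -0.27 and -0.08 for Direct-78 against S3-78, 0.07 and 0.18 in S1-57, 0.05 and -0.06 in S2-32 and 0.05 and -0.07 in S1-32. Subtracting the median of all genes takes out most of such a shift, so the relative values that follow, with TMM, do not test the scaling. In Direct-78 they were -1.12 for ATF4, -2.26 for ATF6, 2.46 for TRIB3 and -4.02 for EDEM1. For S3-78 they were -1.87 for ATF6, 2.75 for TRIB3 and -2.88 for ERO1L. S1-32 had -1.41 for DDIT3, -1.91 for TRIB3 and 2.63 for EDEM1.

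**Figure D2:**
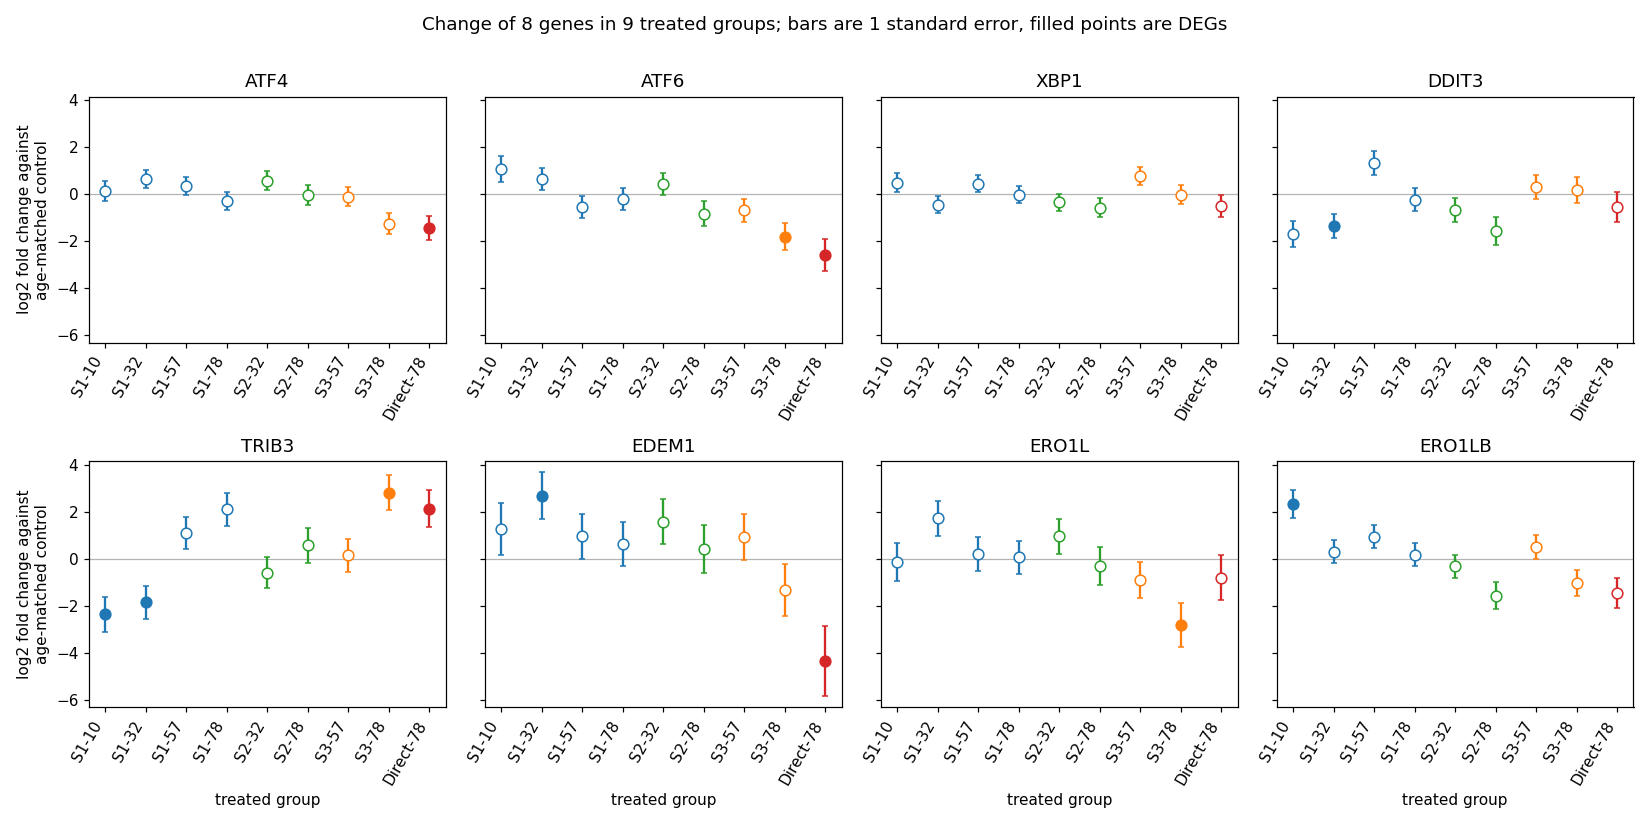
Log2 fold change of each gene against the age-matched control (vertical axis) in the 9 treated groups (horizontal axis), with bars of 1 standard error and filled points for DEGs. TRIB3 lay at -2.36 in S1-10 and at 2.82 in S3-78, and no change of XBP1 was a DEG.

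The branches were then compared across time. At 10 and 32 weeks in the S1 series, the ATF4 and CHOP target TRIB3 was below its controls. ERO1LB (at 10 weeks) and EDEM1 (at 32 weeks), targets of XBP1 or ATF6, were above theirs. Neither was called at both ages: EDEM1 was at 1.27 (adjusted p = 0.535) in S1-10 and ERO1LB at 0.30 (adjusted p = 0.662) in S1-32. None of these calls stood without mouse 68 in S1-10 or without mouse 75 in S1-32. At 78 weeks TRIB3 was above its controls in S3-78 and Direct-78, with ATF6 below in both, EDEM1 below in Direct-78 and ERO1L below in S3-78. ATF4 was below its controls in Direct-78 (-1.45, adjusted p = 0.0334) and not called in S3-78 (-1.26, adjusted p = 0.0530). Of the 9 alternatives, 4 called ATF4 in Direct-78 and 5 in S3-78. DDIT3 was called in neither group, at -0.55 (adjusted p = 0.525) and 0.19 (adjusted p = 0.855). Whether the changes in S1-10 and Direct-78 differed was tested directly, as they have separate controls. By edgeR's adjusted p alone, 4 of 8 genes differed, against 33.8% of tested genes (13.4% with a higher change in Direct-78, 20.4% with a lower one). The change of TRIB3 was larger in Direct-78 by 4.49 (SE 1.09, adjusted p = 0.00173). For ATF6 the difference was -3.67 (SE 0.87, adjusted p = 0.00137). EDEM1 differed by -5.62 (SE 1.83, adjusted p = 0.0154) and ERO1LB by -3.80 (SE 0.89, adjusted p = 0.00122). The difference for ATF4, -1.59 (adjusted p = 0.0569), was not past the threshold and passed it at -1.89 (adjusted p = 0.0304) without mouse 65, -1.84 (adjusted p = 0.0366) without mouse 69 and -1.64 (adjusted p = 0.0458) without mouse 86. Nor was it past the threshold for XBP1, DDIT3 and ERO1L, at -0.99 (adjusted p = 0.201), 1.15 (adjusted p = 0.267) and -0.66 (adjusted p = 0.697). ATF6 in the difference kept its call in all 19 fits without 1 library, with an adjusted p of up to 0.00771, at -3.36, without mouse 66 of Direct-78. TRIB3 in the difference kept its call in all 19 fits without 1 library, with an adjusted p of up to 0.0255, at 3.35, without mouse 68 of Control-10. ERO1LB in the difference kept its call in all 19 fits without 1 library, with an adjusted p of up to 0.00681, at -3.52, without mouse 64 of Direct-78. EDEM1 in the difference lost its call in 2 of 19 fits without 1 library (without mice 64 and 66 in turn), with the largest adjusted p (0.0557, at -4.92) without mouse 64 of Direct-78. All 4 differences missed the threshold with the log2 total count as a covariate, and were past it under the other 8 alternatives. Without mouse 65 both remaining Direct-78 values of EDEM1 were 0, and no difference is given. Relative to the TMM median of all genes, the differences were -3.32 for ATF6, 4.84 for TRIB3, -5.27 for EDEM1 and -3.45 for ERO1LB. Over the 9 alternatives the highest adjusted p were 0.363 for ATF6, 0.532 for TRIB3, 0.854 for EDEM1 and 0.209 for ERO1LB. Exposure length and age differ together between these groups and cannot be told apart here.

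Groups of one age were compared to ask whether continued and stopped exposure differed. Against S1-78, Direct-78 had 2 of 8 genes called by edgeR, both lower, against 24.5% of tested genes (5.35% higher, 19.1% lower). ATF6 differed by -2.37 (SE 0.68, adjusted p = 0.0101), and its 3 Direct-78 libraries lay below the 6 of S1-78, which ran from 27.5 to 101 CPM. EDEM1 differed by -4.97 (SE 1.55, adjusted p = 0.0166), and mouse 65 lay within the S1-78 range. ATF6 in Direct-78 against S1-78 lost its call in 1 of 9 fits without 1 library, that without mouse 66 of Direct-78, at -2.08 (adjusted p = 0.0663). EDEM1 in Direct-78 against S1-78 lost its call in 2 of 9 fits without 1 library (without mice 64 and 66 in turn), with the largest adjusted p (0.0850, at -4.27) without mouse 64 of Direct-78. Without mouse 65 both remaining EDEM1 values were 0, and 4 of 8 genes were called, while 1 of 8 was called without mice 64 and 66 in turn. Relative to the TMM median of all genes, the changes were -2.01 for ATF6 and -4.61 for EDEM1. ATF6 in Direct-78 against S1-78 missed the thresholds with only the groups compared, the log2 total count as a covariate and the libraries of low R2 left out, over alternatives whose adjusted p ran from 0.00300 to 0.622. The alternatives gave EDEM1 in Direct-78 against S1-78 an adjusted p from 0.000733 to 0.805, with no call with only the groups compared, the log2 total count as a covariate, the libraries high in pancreas genes left out and the libraries of low R2 left out. ERO1LB was not called (-1.63, adjusted p = 0.0575) but passed at -1.84 (adjusted p = 0.0333) without mouse 31, -1.67 (adjusted p = 0.0474) without mouse 32 and -2.32 (adjusted p = 0.0470) without mouse 66. ATF4 was not called (-1.17, adjusted p = 0.0759) but passed at -1.48 (adjusted p = 0.0457) without mouse 65. Direct-78 against S3-78 gave 0 of 8, against 5.03% of tested genes (0.363% higher, 4.67% lower), with 1 at an unadjusted p under 0.05 and 0 with DESeq2, and 1 of 8, EDEM1, without mouse 65, where its remaining values were 0. Of all 2205 genes, 469 passed an unadjusted p under 0.05 there and DESeq2 called 174. S2-32 against S1-32 gave 0 of 8, against 3.54% of tested genes (2.13% higher, 1.41% lower), with 0 at an unadjusted p under 0.05 and 0 with DESeq2. Over all genes these 2 counts were 391 and 147. Every S2-32 mouse lay below every S1-32 mouse for EDEM1 (-1.10, adjusted p = 0.590). With only these groups fitted, 2 of 8, EDEM1 and TRIB3, and 446 of 2205 genes were called there, in place of 78. S3-57 against S1-57 gave 0 of 8 and 0% of tested genes. There 111 of all genes passed an unadjusted p under 0.05 and DESeq2 called 7, with 0 of the 8 members in either count. Untreated mice were compared at the ends of the study. Control-78 against Control-10 gave 0 of 8, against 3.95% of tested genes (2.36% higher, 1.59% lower), with 3 at an unadjusted p under 0.05 and 1 with DESeq2, and 1 of 8 without mice 68, 85 and 86 in turn. Of all genes in that comparison, 379 passed an unadjusted p under 0.05 and DESeq2 called 162. The medians of all genes there were -0.06 and -0.20 with TMM and RLE. The smallest adjusted p was that of ERO1LB, at 1.87 (adjusted p = 0.0520), and it was 1.501 (adjusted p = 0.123) without mouse 68, and passed at 1.96 (adjusted p = 0.0405) without mouse 85 and 2.06 (adjusted p = 0.0288) without mouse 86. TRIB3 was at -1.85 (adjusted p = 0.155), and at -0.52 (adjusted p = 0.798) without mouse 68, and both control groups enter the difference between Direct-78 and S1-10. DDIT3 was at 1.18 (adjusted p = 0.274) and passed at 2.35 (adjusted p = 0.0369) without mouse 68.

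Other genes of the pathway were read from 4 lists of 132 genes, of which 45 were tested: 7 of 26 sensors and regulators, 21 of 41 ATF4 and CHOP targets, 11 of 29 chaperones and folding enzymes, and 6 of 36 genes of degradation and export. Chaperones fold client proteins in the reticulum, and degradation and export genes clear those that fail to fold. In Direct-78, 7 of 11 chaperones were lower and 0 higher in edgeR, against 18.7% of all genes lower and 5.71% higher. Their median was -1.44, which lay -1.11 from that of all genes with TMM. With RLE factors 6 of 11 were lower. Of degradation and export genes, 5 of 6 were lower and 0 higher, with a median of -1.58, which lay -1.25 from all genes with TMM, and 3 of 6 were lower with RLE factors. Without mouse 64 the counts were 3 of 11 and 2 of 6, and degradation genes were 3 of 6 without mice 66 and 90 in turn. With the log2 total count as a covariate 0 of each list were called by edgeR, and 11 of all 2205 genes. With only the groups compared the counts were 3 of 11 and 3 of 6, without the libraries high in pancreas genes 5 of 11 and 2 of 6, and without those of low R2 5 of 11 (4 of them among the 7) and 3 of 6. ATF4 and CHOP targets had a median of 0.05, with 2 of 21 higher and 2 lower.

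CANX, a lectin chaperone, had 1331 ± 153 CPM against 3993 ± 583 in Control-78 and a log2 change of -1.58 (adjusted p = 0.000119) from edgeR. HERPUD1, whose product binds the ubiquitin ligase of the reticulum, had 301 ± 215 CPM against 2693 ± 1391 in Control-78, at -3.16 (adjusted p = 0.000236). CANX, PDIA5 (-1.88, adjusted p = 0.000177), HERPUD1 and SEL1L (-2.42, adjusted p = 0.00604) kept their calls in all 9 fits without 1 library. The other calls were PPIB (-1.44, adjusted p = 0.00541), PDIA6 (-3.38, adjusted p = 0.00376), SPCS3 (-1.27, adjusted p = 0.00602) and KDELR2 (-1.89, adjusted p = 0.0189), and, chosen after their values were seen, HSPA5, which encodes BiP (-2.07, adjusted p = 0.00661), CRELD2 (-2.62, adjusted p = 0.00966), P4HB (-1.28, adjusted p = 0.0307) and UBE2J1 (-0.75, adjusted p = 0.0359). Leaving out 1 library removed the calls of PPIB without mice 64 and 66 in turn (up to adjusted p = 0.0625, at -1.30, without mouse 64), PDIA6 without mouse 64 (-2.58, adjusted p = 0.0548), SPCS3 without mouse 64 (-1.03, adjusted p = 0.0934) and KDELR2 without mice 64, 66 and 90 in turn (up to adjusted p = 0.141, at -1.41, without mouse 64). It also removed those of HSPA5 without mouse 66 (-1.64, adjusted p = 0.0745), CRELD2 without mice 64 and 65 in turn (up to adjusted p = 0.0946, at -2.13, without mouse 64), P4HB without mice 64, 65, 66, 85 and 90 in turn (up to adjusted p = 0.170, at -0.84, without mouse 65) and UBE2J1 without mice 64, 66, 85, 88, 89 and 90 in turn (up to adjusted p = 0.269, at -0.49, without mouse 66). Without mouse 66 CRELD2 was at -4.39, and both remaining values of PDIA6 were 0, so that none is given. Without mouse 65 KDELR2 was at -2.88. Of the 9 alternatives, the number that kept the call was 8 for CANX, PDIA5, HERPUD1 and SEL1L, 7 for PDIA6, 6 for PPIB, SPCS3 and CRELD2, 5 for HSPA5, 4 for KDELR2, 3 for P4HB and 2 for UBE2J1. KDELR2 turned to 0.60 with the log2 total count as a covariate. The windows of CANX, PDIA6, HSPA5 and CRELD2 printed above held ERSE. So did those of the chaperones HSP90B1 and CALR, which were not called in Direct-78. The windows of PDIA5, P4HB and PPIB, which were called, did not hold it.

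Among ATF4 and CHOP targets in Direct-78, GDF15, a secreted stress hormone (2.25, adjusted p = 0.0135), and EIF4EBP1, an inhibitor of translation (1.43, adjusted p = 0.0264), were higher, and GARS (-0.97, adjusted p = 0.0267) and CHAC1 lower in edgeR. These calls were lost by GDF15 without mouse 66 (1.76, adjusted p = 0.107), EIF4EBP1 without mice 64, 66 and 90 in turn (up to adjusted p = 0.179, at 1.08, without mouse 66) and GARS without mice 64 and 66 in turn (up to adjusted p = 0.280, at -0.51, without mouse 66). Of the 9 alternatives, the call stood in 7 for GDF15, 4 for EIF4EBP1 and CHAC1 and 3 for GARS, and EIF4EBP1 turned to -0.53 with the log2 total count as a covariate. CHAC1 had 0 counts in all 3 Direct-78 libraries, at least 2.51-fold lower than in Control-78 (3 counts per library), with no call without mice 64, 65 and 66 in turn. The median of the targets was unchanged with CHAC1 at that bound. In S3-78, 4 of 6 degradation genes were lower and 0 higher, against 7.48% of all genes lower: HERPUD1 (-2.01, adjusted p = 0.00493), KDELR2 (-2.30, adjusted p = 0.00324), UBE2J1 (-1.01, adjusted p = 0.00428) and SPCS3 (-1.21, adjusted p = 0.00510). Their list's median lay -1.27 from all genes with TMM. Of chaperones 1 of 11 was lower there, CANX (-1.27, adjusted p = 0.000585). GDF15 was higher (2.06, adjusted p = 0.0206) and GADD45A, a growth arrest gene, lower (-1.80, adjusted p = 0.0190). Calls in S3-78 were lost by UBE2J1 without mouse 55 (-0.71, adjusted p = 0.0613), SPCS3 without mouse 55 (-0.91, adjusted p = 0.0794), GDF15 without mice 55, 59, 87 and 90 in turn (up to adjusted p = 0.0580, at 1.99, without mouse 55) and GADD45A without mice 55, 56 and 90 in turn (up to adjusted p = 0.796, at -0.19, without mouse 90), and the other 3 kept theirs in all 10 fits. Of 9 alternatives these calls stood in 9 for HERPUD1 and CANX, 8 for KDELR2 and UBE2J1 and 7 for SPCS3, GDF15 and GADD45A.

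In S1-10, 4 of 21 ATF4 and CHOP targets were lower and 0 higher in edgeR, against 4.40% of all genes lower, with a median of -0.54 against -0.03 over all genes. They were CEBPB (-2.01, adjusted p = 0.0170), EIF4EBP1 (-1.74, adjusted p = 0.0170), ATF3 (-3.03, adjusted p = 0.0338) and PCK2 (-2.91, adjusted p = 0.0338). The count was 0 of 21 without mouse 68 of Control-10, and 2 of 21 without mice 14, 15, 16, 17 and 18 in turn. Calls were lost by CEBPB without mouse 68 (-1.33, adjusted p = 0.406), EIF4EBP1 without mouse 68 (-1.14, adjusted p = 0.406), ATF3 without mice 14, 15, 16, 17, 18, 68 and 71 in turn (up to adjusted p = 0.186, at -3.06, without mouse 68) and PCK2 without mice 13, 14, 15, 16, 17, 18 and 68 in turn (up to adjusted p = 0.910, at -0.41, without mouse 68). Alternatives that kept the call numbered 9 for CEBPB and EIF4EBP1, 8 for ATF3 and 7 for PCK2. In S1-32, 6 of 21 targets were lower and 1 higher, against 17.2% lower and 11.9% higher over all genes, with the smallest p for CEBPB (-1.85, adjusted p = 0.00423), NARS (-1.23, adjusted p = 0.00641), GDF15 (-2.14, adjusted p = 0.00712) and EIF4EBP1 (-1.36, adjusted p = 0.0124). Each of these 4 kept its call in all 12 fits without 1 library and in 8 of the 9 alternatives, the exception being the log2 total count as a covariate. The other target calls were AARS (1.24, adjusted p = 0.0145), ATF5 (-1.27, adjusted p = 0.0346) and ATF3 (-2.18, adjusted p = 0.0459). 

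Of the other lists in S1-32, chaperones had P4HB higher (1.49, adjusted p = 0.00185) and CALR lower (-1.58, adjusted p = 0.00792). Degradation genes had KDELR2 (1.38, adjusted p = 0.0182) and SEL1L (1.28, adjusted p = 0.0342) higher and SPCS3 lower (-0.65, adjusted p = 0.0493). With ATF6B, 13 of 45 list genes were called there (4 higher, 9 lower), against 29.1% of all genes. AARS, P4HB and CALR kept their calls in all 12 fits, while KDELR2 lost its call in 2, ATF5 in 5, SEL1L in 6, SPCS3 in 8 and ATF3 in 10 of them, mice 75 and 78 included each time. Alternatives with a call numbered 8 for CALR, 7 for AARS and P4HB, 6 for ATF5, 5 for KDELR2, SEL1L and SPCS3 and 4 for ATF3. The number of list genes called by edgeR was 0 of 45 in S1-57 (7 at an unadjusted p under 0.05 and 1 with DESeq2), against 1.59% of all genes. It was 2 in S1-78 (1 higher, 1 lower, and 2 with DESeq2), against 1.81%, and 5 in S2-32 (1 higher, 4 lower, and 14 with DESeq2), against 10.7%. S2-78 had 5 (all lower, and 6 with DESeq2), against 1.63%, and S3-57 had 4 (all lower, and 7 with DESeq2), against 6.39%. Without 1 library the count ran from 1 to 3 in S1-78, from 0 to 13 in S2-32 (0 without mouse 78, 13 without mouse 74), from 1 to 5 in S2-78 (1 without mice 43 and 44 in turn) and from 3 to 6 in S3-57. In S2-32 they were NARS (-1.24, adjusted p = 0.0132), ATF5 (-1.68, adjusted p = 0.0157), CALR (-1.57, adjusted p = 0.0180), EIF4EBP1 (-1.27, adjusted p = 0.0369) and, higher, P4HB (1.18, adjusted p = 0.0203), each lost without mouse 78. EIF4EBP1 in S2-32 lost its call in 8 of 12 fits, and CALR and P4HB also lost theirs without mouse 75. Of the alternatives, a call was made in 8 for NARS and ATF5, 7 for CALR and EIF4EBP1 and 5 for P4HB. S2-78 had HERPUD1 (-2.21, adjusted p = 0.00959), UBE2J1 (-0.89, adjusted p = 0.0395), HSPA5 (-1.73, adjusted p = 0.0436), GADD45A (-1.97, adjusted p = 0.0436) and CHAC1, which had 0 counts in its 4 libraries and was at least 4.95-fold lower. HERPUD1 kept its call in all 10 fits, while CHAC1 lost its call in 3, GADD45A in 5, HSPA5 in 7 and UBE2J1 in 8. Without mouse 90 GADD45A in S2-78 was at -0.36 (adjusted p = 0.755). The alternatives with a call numbered 8 for HERPUD1, 7 for CHAC1, 4 for GADD45A and 3 for HSPA5 and UBE2J1. For S3-57 they were CANX (-1.09, adjusted p = 0.00190), PPIB (-1.25, adjusted p = 0.00743), UBE2J1 (-0.87, adjusted p = 0.0122) and NARS (-1.15, adjusted p = 0.0397). NARS lost its call in 7 of 11 fits and the other 3 in none, and the alternatives with a call numbered 8 for CANX and PPIB, 7 for UBE2J1 and 4 for NARS. The 2 in S1-78 were BBC3, a death gene under CHOP (2.05, adjusted p = 0.00609), and GADD45A (-2.05, adjusted p = 0.00655). They were lost by BBC3 without mouse 31 (1.34, adjusted p = 0.0900) and GADD45A without mouse 90 (-0.44, adjusted p = 0.641), and the alternatives with a call numbered 7 for GADD45A and 6 for BBC3. BBC3 was also higher in S3-78 (2.72, adjusted p = 0.000300), where it kept its call in all 10 fits and all 9 alternatives. Lower sensors were CREB3L3 in Direct-78 (-1.47, adjusted p = 0.0223) and ATF6B in S1-32 (-2.33, adjusted p = 0.0175). Those calls were lost by CREB3L3 without mice 64, 66 and 85 in turn (up to adjusted p = 0.147, at -1.09, without mouse 66) and ATF6B without mouse 75 (-1.09, adjusted p = 0.279), and the alternatives with a call numbered 5 for CREB3L3 and 6 for ATF6B.

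The change in Direct-78 was past the threshold for a difference from that in S1-10, by edgeR's adjusted p, for 7 of 11 chaperones and 4 of 6 degradation genes, each lower in Direct-78, against 20.4% of all genes lower. Over the 19 fits without 1 library those counts ran from 7 to 8 and were 4 throughout. With the log2 total count as a covariate each of these 11 calls was lost, and 0 of either list were past the threshold. Of 21 targets, 4 had a higher change in Direct-78, against 13.4% of all genes, and 1 a lower one, CHAC1, which was at 0 there. The target count ran from 2 to 6 without 1 library, and the 2 were those without mouse 68, where CEBPB, PCK2 and CHAC1 were lost. It was 0 with the log2 total count as a covariate. Some genes of these lists also differed with age in untreated mice. In Control-78 against Control-10, 3 of 11 chaperones, HSPA5 (1.97, adjusted p = 0.0134), PPIB (1.39, adjusted p = 0.0101) and CANX (0.89, adjusted p = 0.0287), and 2 of 6 degradation genes, HERPUD1 (2.36, adjusted p = 0.00407) and SPCS3 (1.52, adjusted p = 0.00209), were higher and 0 lower, against 2.36% of all genes higher. Calls with age were lost by HSPA5 without mouse 72 (1.73, adjusted p = 0.0655) and CANX without mice 68 and 72 in turn (up to adjusted p = 0.103, at 0.71, without mouse 68), and 1 of 11 chaperones was called without mouse 72. The alternatives that kept them numbered 9 for HERPUD1, 8 for HSPA5 and SPCS3, 7 for PPIB and 5 for CANX. FGF21, a target of ATF4, was lower at -4.34 (adjusted p = 0.0101) but at 0.07 (adjusted p = 0.984) without mouse 68.

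**Figure D3:**
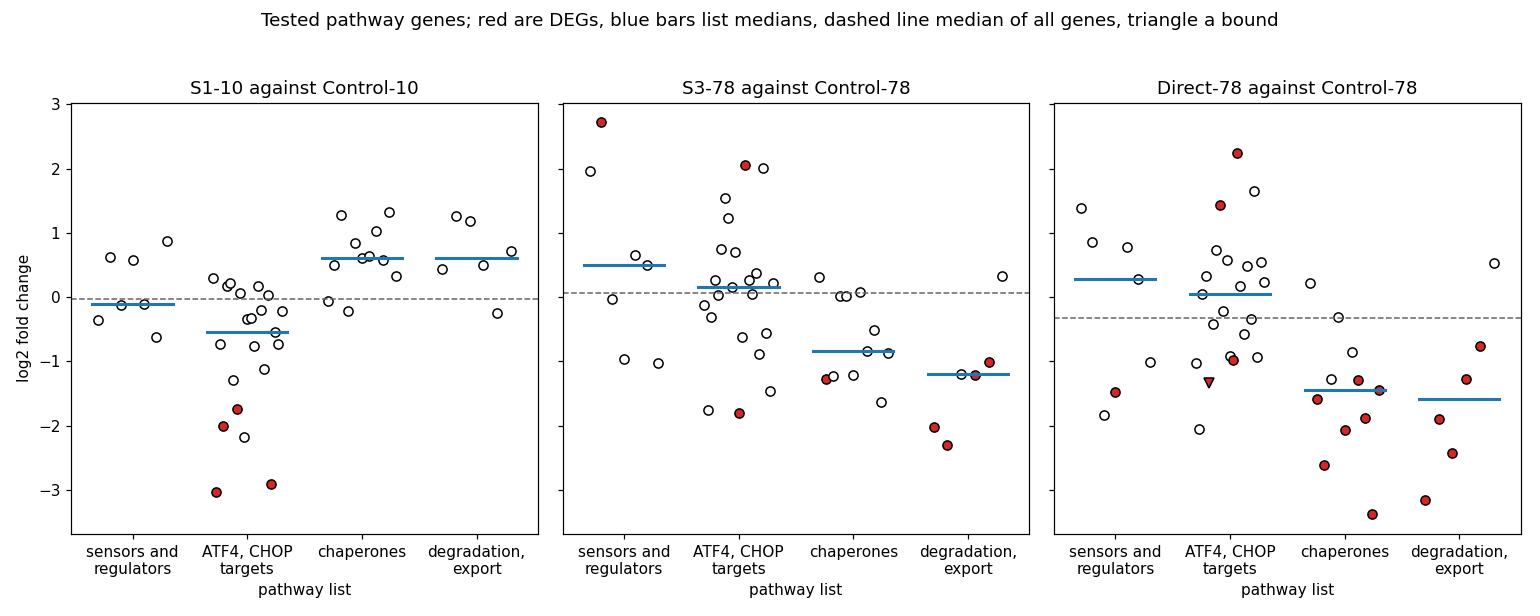
Log2 fold change (vertical axis) of the 45 tested pathway genes by list (horizontal axis) in S1-10, S3-78 and Direct-78, with DEGs in red, list medians in blue, the median of all genes dashed, and a triangle at the bound of CHAC1. In Direct-78, 7 of 11 chaperones and 5 of 6 degradation and export genes were DEGs, each lower.

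Pairs of a factor and a gene it is known to act on, or of factors of linked branches, were compared among mice of the same group, over 68 libraries with group means subtracted. There were 7 pairs, p-values are 2-sided from 100000 permutations within groups, and adjusted values are over the 7. XBP1 and ERO1LB were high and low in the same mice, with r = 0.541 (permutation p = 0.00123, adjusted 0.00430) and rho = 0.408 (permutation p = 0.00325, adjusted 0.0114). Without mice 68 and 47, the farthest from the median of XBP1, r was 0.483. By r, ERO1LB ranked 30 of 2204 genes for XBP1 and XBP1 ranked 91 of 2204 for ERO1LB. TRIB3 was low in mice with high ATF4, with r = -0.576 (permutation p = 3e-05, adjusted 0.000210) and rho = -0.529 (permutation p = 4e-05, adjusted 0.000280), and r was -0.457 without mice 68 and 27. TRIB3 ranked 2150 of 2204 for ATF4, so most genes had a higher r. DDIT3 and ERO1L gave r = -0.271 (permutation p = 0.00405, adjusted 0.00945) and rho = -0.323 (permutation p = 0.00778, adjusted 0.0182), and r was -0.285 without mice 26 and 85. ERO1L ranked 1542 of 2204 for DDIT3 and DDIT3 ranked 1831 of 2204 for ERO1L, so many genes had a more negative r. This relation was not past the threshold without the libraries high in pancreas genes. The other 4 pairs were not past it. ATF4 and DDIT3 had r = -0.288 (permutation p = 0.0599, adjusted 0.105) and rho = -0.275 (permutation p = 0.0455, adjusted 0.0797). DDIT3 and TRIB3 had r = 0.269 (permutation p = 0.119, adjusted 0.167) and rho = 0.191 (permutation p = 0.169, adjusted 0.236). XBP1 and EDEM1 gave r = -0.139 (permutation p = 0.373, adjusted 0.373) and rho = -0.129 (permutation p = 0.358, adjusted 0.365), and ATF6 and XBP1 gave r = -0.194 (permutation p = 0.261, adjusted 0.304) and rho = -0.125 (permutation p = 0.365, adjusted 0.365). Without the 2 farthest libraries, r of these 4 pairs was -0.191, 0.309, -0.147 and 0.0415 in that order. Within groups, r with library R2 was 0.597 for ATF4 and -0.394 for TRIB3, and -0.384 for DDIT3 and 0.545 for ERO1L. For XBP1 and ERO1LB, r with R2 was -0.0103 and 0.433. The part of R2 in the relations of these pairs was not tested.

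**Figure D4:**
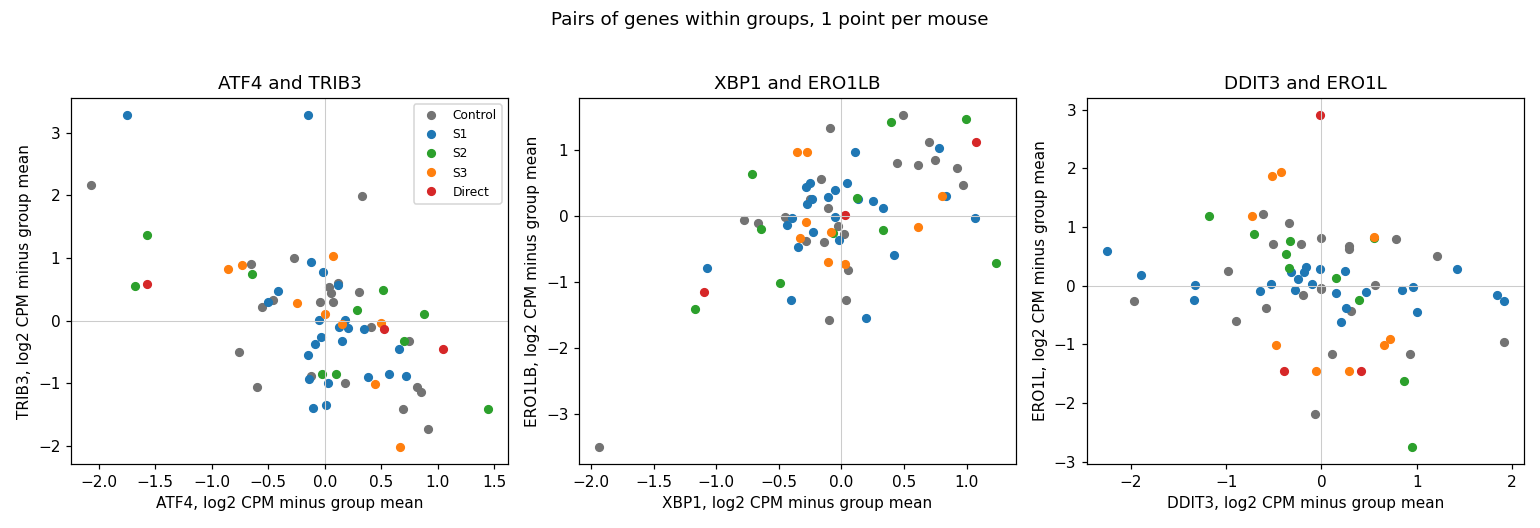
Log2 CPM minus the group mean for 3 pairs of genes (both axes), with 1 point per mouse colored by treatment. XBP1 and ERO1LB had r = 0.541, ATF4 and TRIB3 r = -0.576 and DDIT3 and ERO1L r = -0.271 over 68 libraries.

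Library R2 moved with 7 of the 8 genes within groups, a relation looked at after seeing the data, with 8 relations over 68 libraries and group means subtracted. Pearson's r and Spearman's rho were 0.671 and 0.687 for ATF6, 0.6249 and 0.583 for EDEM1, 0.597 and 0.496 for ATF4, 0.545 and 0.510 for ERO1L and 0.433 and 0.430 for ERO1LB. They were negative for TRIB3, at -0.394 and -0.462, and for DDIT3, at -0.384 and -0.396. For XBP1 they were -0.0103 and -0.0412 (permutation p = 0.949 and 0.773). Permutation p for the 7 others ran from 1e-05, the smallest that 100000 permutations can give, to 0.00256 for r and 0.00303 for rho, and adjusted over the 8 to at most 0.00293 and 0.00346. Without the 2 libraries farthest from the median of each gene, r was 0.624 for ATF6, 0.564 for EDEM1 and -0.386 for TRIB3, and lay between 0.324 and 0.527 for ATF4, ERO1L and ERO1LB. It was -0.395 for DDIT3 and -0.0571 for XBP1. Such relations were common: 8.71% of tested genes had an r of larger size than ATF6, and 43.7% than TRIB3. Direct-78 libraries had lower R2 and depth than every Control-78 library, and S3-78 libraries had lower depth (1154431 to 1936370 counts) and an R2 of 0.758 to 0.920. In Direct-78, of genes related to R2 with a positive sign ATF4, ATF6 and EDEM1 were lower and ERO1L and ERO1LB not called. Of those with a negative sign TRIB3 was higher, while DDIT3 had a change of -0.55 (adjusted p = 0.525). S1-32 libraries had an R2 of 0.904 to 0.921 (median 0.912), against 0.628 to 0.947 (median 0.815) in Control-32. In S1-32, EDEM1, of positive sign, was higher, and DDIT3 and TRIB3, of negative sign, were lower. ATF4, ATF6, ERO1L and ERO1LB were not called in S1-32. The part of R2 and depth in these results was not tested beyond the covariates and exclusions given.

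Markers of other cells were summed in every library. Pancreas genes (17 of 34 on the panel, 8 with a median of 0, CEL the most abundant by mean) had a median of 25.5 CPM. They exceeded 10 times that in 11 libraries, up to 36183 CPM in mouse 36 of S1-78. In Direct-78 their sum was 447, 159 and 177 CPM in mice 64, 65 and 66, above every Control-78 library (8.86 to 47.2 CPM). The list of plasma and B cell genes (4 of 11 genes, 642 to 9472 CPM, most from SDC1, which hepatocytes express too, and 1 with a median of 0) is thus not specific to these cells. Its sum was also above every Control-78 library (1650.3 to 2832 CPM), at 9277, 5813 and 4236 CPM. Hepatocyte genes, at 33264, 53009 and 33853 CPM, overlapped Control-78 (34846 to 72974 CPM). So did macrophage genes (6 of 12 genes, 136 to 6101 CPM, LYZ2 the most abundant), at 552, 765 and 352 CPM against 407 to 1705 CPM. The other lists, each given with its most abundant gene, were T cell (2 of 7 genes, 0 to 54.9 CPM, CD4, 1 with a median of 0), cholangiocyte (3 of 6 genes, 14.3 to 921 CPM, SPP1), stellate and fibroblast (6 of 10 genes, 43.4 to 1828 CPM, COL1A1), endothelial (4 of 7 genes, 55.4 to 458 CPM, KDR) and erythroid (3 of 7 genes, 18.2 to 623 CPM, ALAS2). Each was without a gene at a median of 0 unless stated. In Direct-78 the stellate sum (137 to 274 CPM) lay above every Control-78 library (43.4 to 127 CPM), and the erythroid sum (22.2 to 94.3 CPM) lay below (256 to 622 CPM). T cell genes had 0 counts in all 3 mice, which at their depth allows up to 2.96 to 4.05 CPM for a gene, within the range of their sum in Control-78 (2.80 to 6.85 CPM). Above every Control-78 library in S3-78 were the sums of the list led by SDC1 (3780.3 to 7327 CPM), stellate genes (148 to 339 CPM) and endothelial genes (145 to 227 against 67.7 to 117 CPM), and below was the erythroid sum (18.2 to 213 CPM). Other groups also differed from their controls without overlap. In S1-10 the stellate sum was lower (99.7 to 185 against 270.0 to 474 CPM) and the erythroid sum higher (222 to 412 against 59.2 to 202 CPM). In S1-32 the sum of the list led by SDC1 was lower (724 to 921 against 1026 to 2841 CPM) and the macrophage sum higher (956 to 1403 against 259 to 909 CPM). The stellate sum was also higher in S2-32 (386 to 992 against 47.9 to 292 CPM) and S1-78 (138 to 1828 CPM). Leaving out the libraries high in pancreas genes is among the 9 alternatives, and the part of the other cells in the results was not tested.

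**Figure D5:**
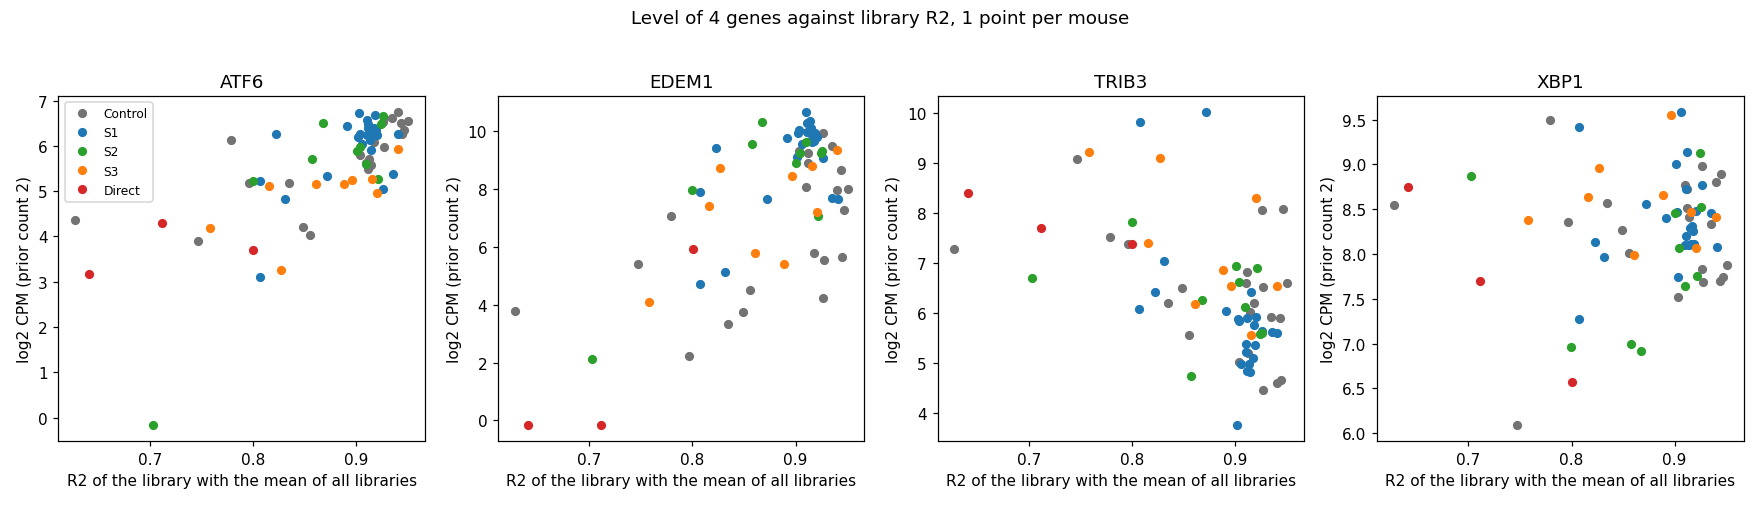
Level of ATF6, EDEM1, TRIB3 and XBP1 (log2 CPM with a prior count of 2, vertical axis) against library R2 (horizontal axis), with 1 point per mouse colored by treatment. Within groups r was 0.671 for ATF6, 0.6249 for EDEM1, -0.394 for TRIB3 and -0.0103 for XBP1.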

How the data were processed

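The authors' raw table gave counts of TempO-Seq products per gene in 78 libraries. Their deposited normalized and filtered tables gave signal, the count plus 1 divided by a median-ratio size factor, from Partek Flow 10.0.22.0524. They were used here only to take the 68 libraries and 2205 genes the authors kept, after 10 libraries with a Spearman R2 under 0.7 and the genes of lowest geometric mean were left out. The R2 computed here does not give the same split: mouse 70 of Control-10, left out by the authors, had 0.752, and the kept mice 75 and 66 had 0.628 and 0.641. Counts were fitted with edgeR 4.0.16 (quasi-likelihood F test, TMM factors, 13 groups in 1 fit, 2-sided, Benjamini-Hochberg over all tested genes) in R 4.3.3, with DESeq2 1.42.0 as an alternative. The methods were tested on simulated data. Every simulated gene had the same spread, and no library was made an outlier. Calls that rest on single mice, or on genes of wide spread such as EDEM1, were thus not covered. Correlations (Python 3.11.15) used log2 CPM with a prior count of 2, the deviations from group means and 100000 permutations within groups. The 8 genes and the pathway lists were chosen with earlier results of these data known. Genes were named by a rule: the 8 always, up to 4 called genes per list and contrast by smallest p, widened after their values were seen to each list gene called against an age-matched control, and the 2 genes (1 for EDEM1) most like each of the 8 by r over the 13 group means. A covariate of detected genes and the R2 limit for kept libraries were chosen after seeing the data.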

Additional observations from a re-analysis of the deposited data

Results flagged for a closer look

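In 12 of 96 groups of a gene, 1 library stood farther from the others than Dixon's limit allows. Chance does so in about 1 in 20 groups where values are normally distributed. CPM was used without a log scale, and all 12 flagged libraries were the highest of their group. The 12 are therefore not read against that share. The high libraries were ATF4 in mouse 74 of Control-32 (571 CPM), ATF6 in mouse 50 of S3-57 (60.3 CPM), DDIT3 in mouse 68 of Control-10 (653 CPM) and mouse 82 of Control-57 (416 CPM), and EDEM1 in mouse 74 of Control-32 (807 CPM). For TRIB3 they were mouse 68 of Control-10 (540.2 CPM), mouse 80 of Control-57 (267 CPM), mouse 27 of S1-57 (896 CPM) and mouse 31 of S1-78 (1038 CPM). For XBP1 they were mouse 73 of Control-32 (720.0 CPM), mouse 81 of Control-57 (476 CPM) and mouse 49 of S3-57 (747 CPM). Mouse 68 appears for DDIT3 and TRIB3, and the S1-10 contrast of both rests on it. The changes in Direct-78 and S1-10 differed by edgeR's adjusted p for ATF6 (-3.67), TRIB3 (4.49), EDEM1 (-5.62) and ERO1LB (-3.80). Of the 10 libraries the authors left out, 8 came from treated mice, with totals of 244409 to 658155 counts, and their values are used only here and where all 78 libraries were fitted. These 8 had an R2 of 0.127 (mouse 57) to 0.624 (mouse 46). The lowest R2 of the kept controls was 0.855 in Control-57 and 0.849 in Control-78. Treatment and library quality cannot be told apart in this comparison. Below every kept age-matched control were 8 of the 8 for ATF4, 4 for ATF6, 2 each for XBP1, DDIT3, TRIB3 and EDEM1, 1 for ERO1LB and 0 for ERO1L, with 0 counts taken as 3 (4.56 to 12.3 CPM of total counts in these libraries). ERO1L had 0 counts in 7 of the 8, which this depth does not set apart from the controls. Above every control were 5 for TRIB3, 2 for XBP1, 1 for ERO1L and 1 for ERO1LB. The cause of each was not tested.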

How the results depend on the processing

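Of 18 calls among the 8 genes, 5 kept their side of the thresholds in every fit without 1 library and 0 of 18 under all 9 alternatives, and RLE factors changed no count of called members past 1.5 times. With the log2 total count as a covariate, S1-10 had 1 call in place of 2 (72 in place of 121 of all genes), S1-32 0 of 3 (36 in place of 642), S2-78 1 in place of 0 (44 in place of 36) and S3-78 0 of 3 (117 in place of 294). Direct-78 had 0 of 4 (11 in place of 539), Direct-78 against S1-78 0 of 2 (9 in place of 540) and the difference between Direct-78 and S1-10 0 of 4 (11 in place of 745), and EDEM1 in Direct-78 reversed to 0.072 (adjusted p = 0.994, lowest over its alternatives 0.00370). In Direct-78, S3-78 and S3-57, with totals below every age-matched control, and in S1-32, with totals above, the total count and the group move together. They cannot be told apart there. With only the groups compared, S1-10 had 1 (170 of all genes), Direct-78 2 (310), S2-32 against S1-32 2 in place of 0 (446 in place of 78), and Direct-78 against S1-78 0 (45). All 78 libraries gave 1 in S1-10 (240) and 0 in S1-32 (306), and all panel genes 1 in S1-10 (96). Without libraries high in pancreas genes there was 1 in S1-32 (456), 2 in Direct-78 (304), 1 in Direct-78 against S1-78 (301) and 2 in Control-78 against Control-10 (140 in place of 87), r of DDIT3 and ERO1L was -0.213 (adjusted permutation p = 0.0524, lowest over its alternatives 0.00931), and r of ATF6 and XBP1 was 0.0705 (adjusted permutation p = 0.745, lowest 0.0781). Without libraries of low R2, S1-32 had 0 (410), Direct-78 1 (255), Direct-78 against S1-78 0 (236) and Control-78 against Control-10 1 (106). With a covariate of detected genes, Direct-78 against S1-78 had 4 (651) and Control-78 against Control-10 had 1 (113). DESeq2 called 1 in S1-78 (85 in place of 40) and 1 in Control-78 against Control-10 (162). Of list genes DESeq2 called 1 in S1-57 (71 of all genes), 14 in S2-32 (393), 7 in S3-57 (214) and 13 in S3-78 (404). RLE factors gave 9 list genes in S2-32 (281 of all genes) and 2 in S2-78 (43). Without 1 library, calls among the 8 genes ran from 0 to 3 in S1-10, 0 to 4 in S1-32, 0 to 1 in S2-32, 1 to 4 in S3-78, 1 to 5 in Direct-78, 1 to 4 in Direct-78 against S1-78, 0 to 1 in Direct-78 against S3-78, 0 to 1 in Control-78 against Control-10 and 3 to 6 for the difference, and stayed at 0 in the other 6 comparisons. The cause of these changes was not tested. Low counts of ERO1L, at most 57 per library, and the depth of Direct-78 limit what those values can show.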
